A study of Mus musculus with 12 samples.

Results

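The genes described here are the nuclear genes of the mouse aminoacyl-tRNA synthetases, 36 symbols of which 20 name cytosolic enzymes and 16 mitochondrial ones. A gene was measured where a transcript cluster of the array was annotated to its symbol alone, and the cluster with the highest mean was used where a gene had several. By this rule 34 of the 36 were measured, 18 cytosolic and 16 mitochondrial, among 19938 genes in all. Aars shares its cluster with Exosc6, and no cluster named Dars alone was used here. No filter on low values was applied, so all 34 entered every test.

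The cells were NIH3T3, an established line of mouse fibroblasts, grown without drug or with 1 mM difluoromethylornithine (DFMO), which blocks ornithine decarboxylase and so depletes polyamines. Total RNA came from G1 cells collected by sorting, on 3 arrays of untreated cells at 0 h and 2, 3, 2 and 2 arrays at 12, 24, 48 and 96 h of DFMO. The labels call the arrays biological replicates. All groups share the cell line, the serum-containing medium and the G1 gate, and no untreated culture of a later hour was analysed here, so hours in culture and drug exposure cannot be told apart.

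Each synthetase joins an amino acid to the tRNAs that carry its codons' anticodons, the step that fixes the genetic code. The cytosolic enzymes charge tRNAs for proteins made from nuclear genes, while the mitochondrial enzymes, imported from the cytosol, charge the tRNAs encoded by mitochondrial DNA. Gars and Kars each serve both compartments from a single gene, and Eprs joins the glutamyl and prolyl activities in a single polypeptide. Class I and class II enzymes have unrelated catalytic folds, and several cytosolic enzymes are held in the multisynthetase complex. Many cytosolic synthetase genes are known targets of ATF4, the transcription factor of the amino acid response, which binds a composite element whose core reads TGATGNAA.

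RefSeq promoter windows of build GRCm38.p6, 250 bases before to 50 after a gene's start, were matched for 25 measured members, 11 cytosolic and 14 mitochondrial. The core TGATGNAA, searched on both strands, was found in 4 of 11 cytosolic genes (36.4%) and in 0 of 14 mitochondrial genes, against 4.51% of all 27025 genes with such windows (3.97% of 32851 windows). The E-box CACGTG, a site class bound by MYC and related factors, was found in 3 of 11 cytosolic genes (Iars, Tars and Farsb, 27.3%) and in 1 of 14 mitochondrial genes (Ears2, 7.14%), against 8.09% of all genes (7.15% of windows). No match of one motif overlapped a match of the other. A match is a string of letters and not a measured binding site. The stretches below are those of the 4 cytosolic genes with the core, 100 bases before to 28 after the start, read 5′ to 3′ on the gene's strand, and the capitals mark the core (on either strand) or the E-box. They are shown because Tars and Iars were among the synthetases that fell at 96 h, while Gars and Yars were not called against untreated cells. Of the genes that fell at 96 h, windows were matched for Iars, Tars and Mars, and none for Vars, Wars, Hars, Rars and Nars. They lie at chr15:11399631-11399758 on the minus strand (Tars), and on the plus strand at chr6:55037901-55038028 (Gars), chr13:49682030-49682157 (Iars) and chr4:129189803-129189930 (Yars).
Tars: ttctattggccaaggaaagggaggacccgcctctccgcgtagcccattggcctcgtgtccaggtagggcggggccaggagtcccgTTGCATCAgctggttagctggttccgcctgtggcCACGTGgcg
Gars: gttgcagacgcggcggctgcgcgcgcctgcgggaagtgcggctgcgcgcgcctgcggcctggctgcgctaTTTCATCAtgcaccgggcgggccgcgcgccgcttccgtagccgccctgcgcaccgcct
Iars: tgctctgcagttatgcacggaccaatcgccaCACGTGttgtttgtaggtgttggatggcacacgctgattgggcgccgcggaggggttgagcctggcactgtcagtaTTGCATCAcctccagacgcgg
Yars: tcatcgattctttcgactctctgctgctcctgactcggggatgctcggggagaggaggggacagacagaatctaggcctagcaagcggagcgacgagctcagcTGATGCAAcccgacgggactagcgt
In Tars the core began 15 bases before the start and an E-box 20 bases after it. In Gars the core began 30 bases before the start. In Iars it began at base 8 of the transcript with an E-box 69 bases before the start, and in Yars it began at base 4.

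The 12 arrays had medians of 4.11 to 4.16 log2 units over all genes tested, and Pearson's r between replicate arrays over all genes lay between 0.994 and 0.998. Of 8 fibroblast markers, the untreated levels ran from 8.30 to 12.3. The untreated levels of 5 leukocyte markers ran from 3.36 to 3.82 and those of 4 endothelial markers from 3.37 to 3.76, while of 5 epithelial markers Krt14 stood at 8.83. At 96 h, by the threshold given below, 1 of 8 fibroblast markers rose and 5 fell, and 1 of 5 epithelial markers rose and 1 fell (Krt14, by 1.82). In the same comparison 1 of 4 endothelial and 0 of 5 leukocyte markers rose. The shares of all genes were 11.8% higher and 10.1% lower. The part of these shifts in the results below was not tested.

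At 12 and 24 h of DFMO no synthetase gene was called. The threshold for a call was a limma adjusted p below 0.05, with Benjamini-Hochberg adjustment over all 19938 genes. The share of all genes called was 0% in either direction at both times. At an unadjusted p under 0.05, 2 of 34 members passed at 12 h and 4 at 24 h, against 741 and 1579 of all 19938 genes. The cytosolic median log2 change was -0.09 at 12 h and -0.05 at 24 h, with a mitochondrial median of 0.02 and 0.05, against -0.01 and -0.02 over all genes. The comparisons with untreated cells all use the same 3 untreated arrays.

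At 48 h 3 synthetase genes rose and none fell, and 2 of them were mitochondrial. Of 18 cytosolic genes, 1 rose and 0 fell, and of 16 mitochondrial genes, 2 rose and 0 fell, against 2.65% of all genes higher and 3.17% lower. At an unadjusted p under 0.05, 8 mitochondrial members were higher and 0 lower, and 2 cytosolic members were higher and 3 lower. That threshold gave 1749 genes higher and 2198 lower over all 19938 genes. The mitochondrial median was 0.28 and the cytosolic median 0.08, against -0.02 over all genes. The 3 called genes were Tars2, the mitochondrial threonyl enzyme (0.72 ± 0.12, SE, adjusted p = 0.00861), Pars2, the mitochondrial prolyl enzyme (0.36 ± 0.08, adjusted p = 0.0259), and Wars, the cytosolic tryptophanyl enzyme (0.29 ± 0.07, adjusted p = 0.0349). The Wars call held in 10 of 22 alternative settings and ended without any 1 of the untreated, 48 h or 96 h arrays. The Tars2 call ended without 48 h replicate 1, and the Pars2 call without untreated replicate 1 or 3 or either 48 h array. Rars2 had the highest log2 change of the members at 48 h, 0.79, and was not called (adjusted p = 0.0773).

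At 96 h the cytosolic genes that were called all fell and the mitochondrial genes that were called all rose. In all, 8 of 18 cytosolic genes fell and 0 rose, while 5 of 16 mitochondrial genes rose and 0 fell. Over all genes 10.1% were called lower and 11.8% higher. These shares were not matched for level. The median untreated level was 9.66 (8.08 to 10.9) over cytosolic and 5.75 (3.80 to 8.11) over mitochondrial members, against 4.14 over all genes. The part of these levels in the calls was not tested. The cytosolic genes that fell were Vars, Mars, Hars, Iars, Rars, Nars, Tars and Wars, and the mitochondrial genes that rose were Rars2, Hars2, Wars2, Tars2 and Pars2. The median log2 change was -0.36 over cytosolic and 0.08 over mitochondrial members, against 0.00 over all genes. In bulk RNA, fewer cells of a type and less RNA per cell cannot be told apart. Of the cytosolic members, 17 of 18 had a negative log2 change and 13 had both 96 h arrays below all 3 untreated arrays, which 21.4% of all genes did beside the 10.1% called. Of the mitochondrial members, 7 of 16 had both 96 h arrays above all untreated arrays and 2 had both below, against 23% and 21.4% of all genes. Leaving out 96 h replicate 1 gave 3 cytosolic genes lower and 1 mitochondrial gene higher, and leaving out its replicate 2 gave 5 cytosolic genes lower. Leaving out untreated replicate 1 or 2 gave 3 mitochondrial genes higher.

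**Figure D1:**
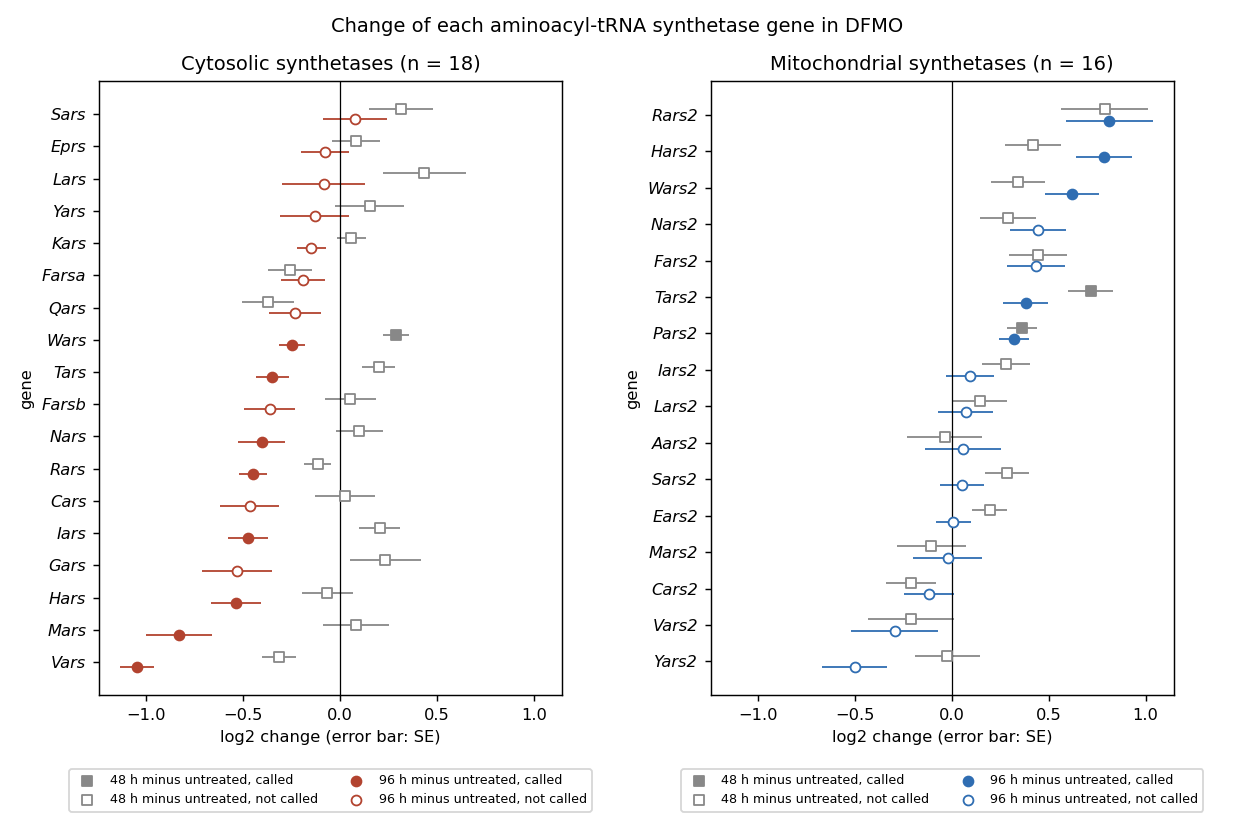
Log2 change of each measured synthetase gene at 48 h (grey squares) and at 96 h (coloured circles) against untreated cells, with cytosolic genes on the left and mitochondrial genes on the right. Bars are limma standard errors (n = 2 against 3) and filled symbols are genes called at an adjusted p under 0.05. Filled circles lie below 0 for 8 cytosolic genes and above 0 for 5 mitochondrial genes.

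Vars, the valyl enzyme, had the deepest fall of the cytosolic genes. Its log2 levels were 9.20, 9.18 and 9.24 in untreated cells, 9.09 and 8.90 at 12 h, 8.96, 9.15 and 8.94 at 24 h, then 8.91 and 8.87 at 48 h, and 8.26 and 8.06 at 96 h. Every treated array lay below all untreated arrays, and the 96 h arrays lay below every other array. The log2 change at 96 h was -1.05 ± 0.09 (2.06-fold lower, adjusted p = 2.94e-05), and at 48 h it was -0.32 ± 0.09 (adjusted p = 0.0714).

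Mars, the methionyl enzyme, also supplies the initiator methionine tRNA. It had log2 levels of 8.91, 8.96 and 9.21 in untreated cells, 8.92 and 9.00 at 12 h, 8.62, 9.19 and 9.26 at 24 h, then 9.03 and 9.20 at 48 h, and 8.19 and 8.21 at 96 h. The 96 h arrays stood apart below all others, while the 24 h arrays spread widely. The log2 change at 96 h was -0.83 ± 0.17 (1.78-fold lower, adjusted p = 0.00632). Hars, the histidyl enzyme, had 8.81, 8.82 and 9.28 in untreated cells, 8.99 and 8.97 at 12 h, 8.90, 8.75 and 8.96 at 24 h, then 8.90 and 8.91 at 48 h, and 8.48 and 8.39 at 96 h. Only the 96 h arrays lay below the untreated range apart from a single 24 h array. Its log2 change at 96 h was -0.54 ± 0.13 (1.45-fold lower, adjusted p = 0.0148), and the call ended without either 96 h array.

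Iars, the isoleucyl enzyme, had log2 levels of 9.98, 10.09 and 10.32 in untreated cells, 10.07 and 9.96 at 12 h, 10.00, 10.26 and 10.22 at 24 h, then 10.35 and 10.32 at 48 h, and 9.64 and 9.67 at 96 h. The 48 h arrays lay just above the untreated range and the 96 h arrays below it. The log2 change was 0.20 ± 0.10 at 48 h (adjusted p = 0.318) and -0.47 ± 0.10 at 96 h (adjusted p = 0.00864). A second cluster of Iars gave -0.45 at 96 h (adjusted p = 0.0316 over all clusters).

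Tars, the cytosolic threonyl enzyme, had 9.39, 9.39 and 9.52 in untreated cells, 9.42 and 9.37 at 12 h, 9.26, 9.43 and 9.49 at 24 h, then 9.71 and 9.56 at 48 h, and 9.01 and 9.17 at 96 h. Like Iars, it lay above the untreated range at 48 h and below it at 96 h, with log2 changes of 0.20 ± 0.09 (adjusted p = 0.23) and -0.35 ± 0.09 (adjusted p = 0.0151). The calls of Iars and Tars at 96 h ended without 96 h replicate 1. Wars had 9.31, 9.38 and 9.27 in untreated cells, 9.20 and 9.27 at 12 h, 9.28, 9.42 and 9.22 at 24 h, then 9.66 and 9.57 at 48 h, and 9.08 and 9.08 at 96 h. It was called in opposite directions at the 2 late times, with a log2 change of -0.24 ± 0.07 at 96 h (adjusted p = 0.0263) that lost its call without untreated replicate 1 or 2 or either 96 h array.

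Rars, the arginyl enzyme of the complex, had 10.88, 10.87 and 10.97 in untreated cells, 10.73 and 10.90 at 12 h, 10.84, 10.996 and 10.84 at 24 h, then 10.74 and 10.84 at 48 h, and 10.44 and 10.48 at 96 h. The 96 h arrays lay below every other array, with a log2 change of -0.45 ± 0.07 (adjusted p = 0.00151). Nars, the asparaginyl enzyme, had 10.43, 10.56 and 10.81 in untreated cells, 10.56 and 10.31 at 12 h, 10.34, 10.50 and 10.61 at 24 h, then 10.75 and 10.64 at 48 h, and 10.24 and 10.15 at 96 h. Its untreated arrays spread over more than the gap to the 96 h arrays, and the log2 change of -0.40 ± 0.12 (adjusted p = 0.0408) kept its call in 10 of 22 alternatives. The calls of Vars, Mars and Rars at 96 h held in all 22.

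**Figure D2:**
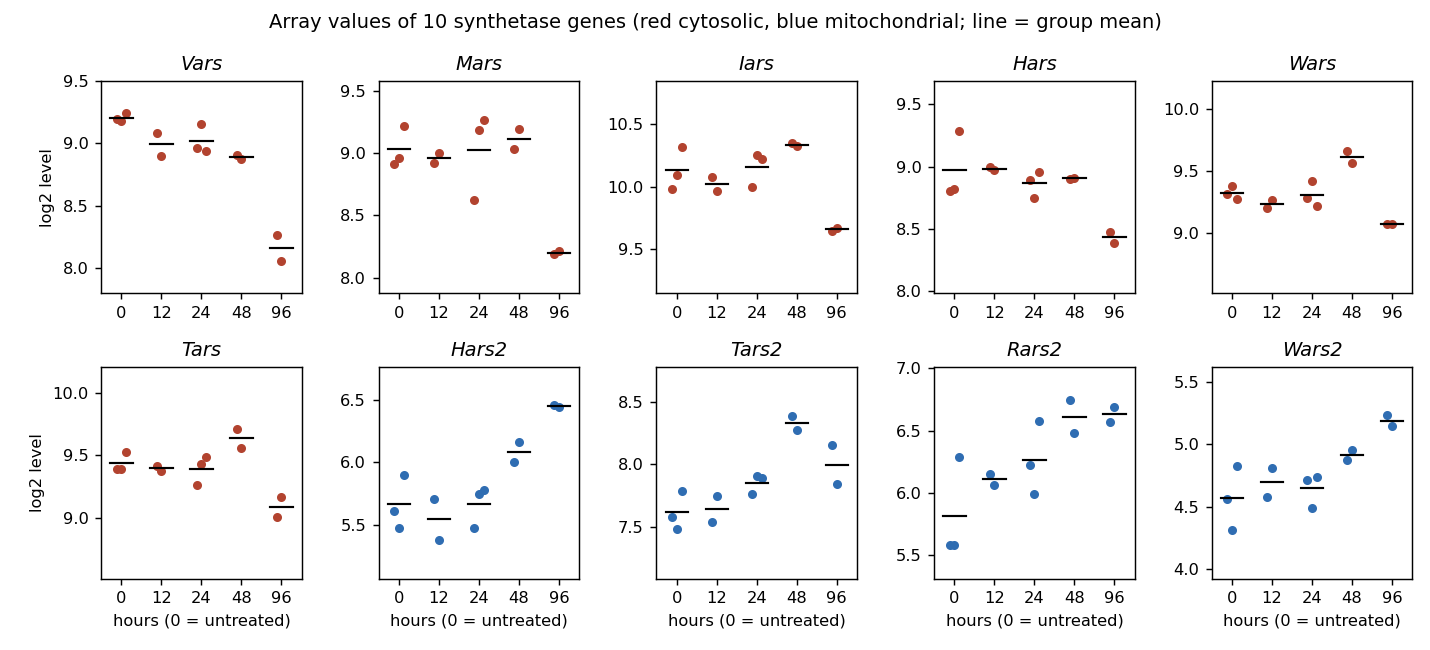
Log2 level on every array of 6 cytosolic genes (red) and 4 mitochondrial genes (blue) against hours in DFMO, with untreated cells at 0 and group means as lines. Each panel has its own vertical range. The 96 h points of Vars lie at 8.26 and 8.06 and those of Hars2 at 6.45 and 6.44.

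The remaining 10 cytosolic genes were not called at 48 or 96 h. Their log2 changes at 96 h ran from -0.53 for Gars, the glycyl enzyme of both compartments, to 0.08 for Sars, the seryl enzyme. Cars, the cysteinyl enzyme, stood at -0.47 (adjusted p = 0.0585) and Farsb, the beta subunit of the phenylalanyl enzyme, at -0.36 (adjusted p = 0.0853), while its partner subunit Farsa stood at -0.19. The glutaminyl gene Qars had -0.23, Kars -0.15, the tyrosyl gene Yars -0.13, the leucyl gene Lars -0.08 and Eprs -0.08. The cluster that Aars shares with Exosc6 had a log2 change of 0.13 at 96 h and was not called.

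The falls were found in both catalytic classes and inside and outside the multisynthetase complex. At 96 h 5 of 10 class I genes (median -0.35) and 3 of 8 class II genes (median -0.36) fell, against 10.1% of all genes. Of the complex, 3 of 7 enzymes fell (Iars, Mars and Rars, median -0.23), and 5 of 11 outside it fell (median -0.36). The difference between these subgroups was not tested.

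Of the mitochondrial genes, Hars2 and Rars2 had the highest log2 changes at 96 h. Hars2, the mitochondrial histidyl enzyme, had log2 levels of 5.61, 5.48 and 5.90 in untreated cells, 5.71 and 5.38 at 12 h, 5.47, 5.75 and 5.77 at 24 h, then 6.0 and 6.16 at 48 h, and 6.45 and 6.44 at 96 h. The arrays at 48 h lay above all untreated and earlier treated arrays, and those at 96 h higher still. The log2 change was 0.42 ± 0.14 at 48 h (adjusted p = 0.137) and 0.79 ± 0.14 at 96 h (1.73-fold, adjusted p = 0.0033), and the 96 h call held in all 22 alternatives.

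Rars2, the mitochondrial arginyl enzyme, had 5.58, 5.58 and 6.29 in untreated cells, 6.16 and 6.07 at 12 h, 6.23, 6.0 and 6.58 at 24 h, then 6.74 and 6.48 at 48 h, and 6.57 and 6.69 at 96 h. Untreated replicate 3 stood far above the other untreated arrays. The log2 change at 96 h was 0.81 ± 0.22 (1.76-fold, adjusted p = 0.0278), and the call ended without untreated replicate 1 or 2 or either 96 h array. Wars2, the mitochondrial tryptophanyl enzyme, had 4.57, 4.31 and 4.83 in untreated cells, 4.58 and 4.81 at 12 h, 4.72, 4.49 and 4.74 at 24 h, then 4.87 and 4.95 at 48 h, and 5.23 and 5.15 at 96 h. Its late arrays all lay above its earlier ones, with a log2 change at 96 h of 0.62 ± 0.14 (1.54-fold, adjusted p = 0.0101) that lost its call without 96 h replicate 1.

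Tars2 had its highest levels at 48 h. They were 7.58, 7.48 and 7.78 in untreated cells, 7.53 and 7.75 at 12 h, 7.76, 7.91 and 7.89 at 24 h, then 8.38 and 8.28 at 48 h, and 8.15 and 7.84 at 96 h. The 96 h arrays lay between the 48 h and untreated arrays, with a log2 change of 0.38 ± 0.12 (adjusted p = 0.0422) whose call held in 12 of 22 alternatives. Pars2 had 3.73, 3.92 and 3.74 in untreated cells, 4.13 and 3.99 at 12 h, 4.08, 4.01 and 4.09 at 24 h, then 4.23 and 4.09 at 48 h, and 4.16 and 4.08 at 96 h. All treated arrays lay above the untreated ones, and the log2 change at 96 h was 0.32 ± 0.08 (adjusted p = 0.0141, not called without 96 h replicate 1). The untreated mean of Pars2, 3.80, lies within the range of the leukocyte markers.

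Nars2, the mitochondrial asparaginyl enzyme, had 5.55, 5.84 and 6.09 in untreated cells, 5.66 and 5.65 at 12 h, 5.65, 5.83 and 6.03 at 24 h, then 6.09 and 6.15 at 48 h, and 6.29 and 6.25 at 96 h. Its 96 h arrays lay above all the others, and the log2 change of 0.45 ± 0.14 was not called (adjusted p = 0.0546). The other 10 mitochondrial genes were not called at 48 or 96 h. Their log2 changes at 96 h ran from -0.50 for Yars2, the tyrosyl enzyme (adjusted p = 0.0639), to 0.44 for Fars2, the phenylalanyl enzyme (adjusted p = 0.0681).

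Set side by side by amino acid, the mitochondrial gene had the higher log2 change in 11 of 15 pairs at 12 h and in 13 pairs at 24 h, then in 10 at 48 h and 13 at 96 h. The count at 96 h was thus also reached at 24 h, a time at which no member was called. The median of cytosolic minus mitochondrial change was -0.19 at 12 h and -0.12 at 24 h, then -0.10 at 48 h and -0.63 at 96 h, all against the same untreated arrays. The pair difference was not tested, since the members are not replicates. The histidyl pair differed most, with -0.54 for Hars and 0.79 for Hars2, genes whose spans overlap as neighbours in the RefSeq annotation. The arginyl pair had -0.45 and 0.81, the tryptophanyl pair -0.24 and 0.62, and the threonyl pair -0.35 and 0.38, each with its cytosolic gene first. The exceptions at 96 h were the tyrosyl pair, with -0.13 for Yars and -0.50 for Yars2, and the seryl pair, with 0.08 for Sars and 0.05 for Sars2. In the valyl pair both log2 changes were negative, -1.05 for Vars and -0.29 for Vars2.

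**Figure D3:**
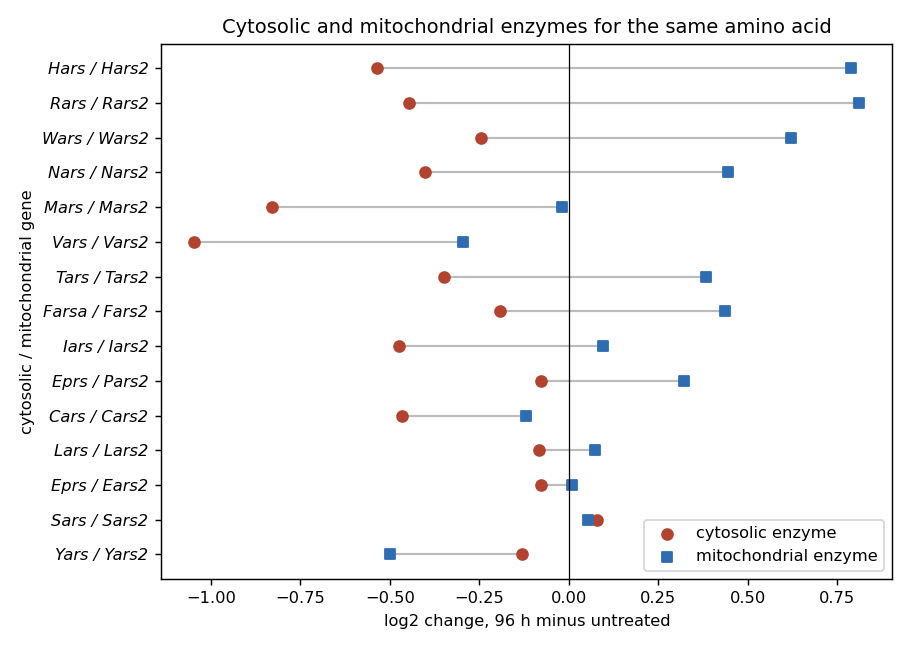
Log2 change at 96 h against untreated cells of the cytosolic and the mitochondrial gene for each of 15 pairs, sorted by their difference. In 13 of 15 pairs the mitochondrial point lies to the right of the cytosolic one. Eprs appears in the glutamate and the proline pair, and Fars2 is set beside the subunit gene Farsa.

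Between neighbouring times, cytosolic genes were called lower in the step to 96 h and in neither direction in the step to 48 h. At 48 h against 24 h 0 of 34 members were called, against 0.527% of all genes higher and 1.14% lower. At an unadjusted p under 0.05, 5 members were higher and 0 lower, against 1098 and 1221 of all 19938 genes. At 96 h against 48 h 8 of 18 cytosolic genes fell and 0 rose, and 0 of 16 mitochondrial genes were called, against 4.29% of all genes lower and 4.35% higher. At an unadjusted p under 0.05 in that step, 1 mitochondrial member was higher and 2 lower, against 2434 and 1804 of all 19938 genes. The cytosolic median was -0.48 and the mitochondrial median -0.02, against 0.03 over all genes. This comparison does not use the untreated arrays. Its cytosolic genes were Mars (-0.91 ± 0.19, adjusted p = 0.0159), Gars (-0.77 ± 0.20, adjusted p = 0.0436), Vars (-0.73 ± 0.10, adjusted p = 0.00157), Iars, Tars, Wars, Nars and Rars. In 16 of 18 cytosolic genes both 96 h arrays lay below both 48 h arrays, which 20.5% of all genes did beside the 4.29% called. Leaving out replicate 1 of either time gave a count of 3, while leaving out replicate 2 gave 5 at 48 h and 4 at 96 h.

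Among treated cells alone, the late arrays (48 and 96 h) were set against the early ones (12 and 24 h). The spread was again estimated over all 12 arrays. Of the cytosolic genes 2 fell and 0 rose, and of the mitochondrial genes 4 rose and 0 fell, against 9.38% of all genes lower and 10.1% higher. The cytosolic genes were Vars (-0.48 ± 0.06, adjusted p = 0.000709) and Rars (-0.23 ± 0.05, adjusted p = 0.0139). The mitochondrial genes were Hars2 (0.66 ± 0.11, adjusted p = 0.00196), Nars2 (0.45 ± 0.11, adjusted p = 0.0157), Tars2 (0.42 ± 0.09, adjusted p = 0.00771) and Wars2 (0.38 ± 0.10, adjusted p = 0.0292). Only 1 cytosolic gene was lower without 12 h replicate 2, 48 h replicate 1 or 96 h replicate 1, and 2 mitochondrial genes were higher without 48 h replicate 2 or 96 h replicate 1. By limma's F test over all times against untreated cells, 9 of 34 members were called, 6 of them cytosolic, against 17% of all genes.

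Array by array, the median log2 deviation of the cytosolic members from their untreated means was -0.11, -0.04 and 0.15 in untreated cells, -0.04 and -0.12 at 12 h, -0.24, 0.01 and 0.02 at 24 h, then 0.13 and 0.02 at 48 h, and -0.38 and -0.33 at 96 h. That of the mitochondrial members was -0.03, -0.11 and 0.19 in untreated cells, 0.03 and 0.07 at 12 h, 0.03, 0.05 and 0.12 at 24 h, then 0.25 and 0.31 at 48 h, and 0.20 and 0.06 at 96 h. The cytosolic medians of the 96 h arrays lay below those of every other array. The mitochondrial median of untreated replicate 3 lay between those of the 96 h arrays. Untreated replicate 3 and 24 h replicate 3 deviated together across all genes (r = 0.581). The 2 arrays at 12 h mirror each other, with r of -0.318 and 0.318 against untreated replicate 3. Which of these 2 deviated therefore cannot be told. The 3 arrays called deviating below are untreated replicate 3, 12 h replicate 2 and 24 h replicate 3. With these 3 arrays left out 7 cytosolic genes were lower and 6 mitochondrial genes higher at 96 h, with the calls of Tars and Pars2 ended.

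The non-catalytic proteins that hold the multisynthetase complex together were called in both directions. Aimp1, a scaffold of the complex that is also secreted as a cytokine, had log2 changes of 0.47 ± 0.11 (adjusted p = 0.0331) and 0.41 ± 0.11 (adjusted p = 0.0202) at 48 and 96 h, both called higher. Aimp2, the scaffold that binds Kars, fell by 0.68 ± 0.14 at 96 h (adjusted p = 0.00727). The third scaffold gene was not called at either time against untreated cells. At 96 h against 48 h it was called lower (-0.54 ± 0.13, adjusted p = 0.0349), as were 4.29% of all genes. Of the 3 scaffold genes 1 was called higher at 48 h, against 2.65% of all genes. At 96 h 1 was called higher and 1 lower, against 11.8% and 10.1% of all genes. Of the synthetases outside the member list, the only one measured was Tarsl2, which encodes a second cytosolic threonyl enzyme. Its log2 change at 96 h was -1.54 ± 0.18 (adjusted p = 0.000262).

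Genes that act beside the mitochondrial synthetases moved in both directions. Of 4 measured genes that amidate glutamyl-tRNA or formylate the initiator tRNA in mitochondria, 1 rose and 0 fell at 96 h, against 11.8% of all genes higher and 10.1% lower. That gene was Gatb, an amidotransferase subunit (0.60 ± 0.17, adjusted p = 0.0284). Of 9 mitochondrial translation factors, 4 rose and 1 fell at 96 h, against the same shares of all genes, and 0 were called at 48 h. The ribosome recycling factor Mrrf rose by 0.76 ± 0.20 (adjusted p = 0.0237) and the initiation factors Mtif2 and Mtif3 by 0.66 and 0.50. The elongation factor Tufm, which delivers charged tRNAs to the mitochondrial ribosome, rose by 0.36 ± 0.09 (adjusted p = 0.0179), and the release factor Mtrf1l fell by 0.72 ± 0.18 (adjusted p = 0.016).

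Of 23 genes of the amino acid response, 7 were called higher and 0 lower at 48 h, against 2.65% and 3.17% of all genes. At 96 h 7 were called higher and 6 lower, against 11.8% and 10.1% of all genes. The median log2 change was 0.53 at 48 h and -0.06 at 96 h. Atf4 had log2 levels of 8.93, 9.09 and 8.80 in untreated cells, 9.13 and 9.03 at 12 h, 9.29, 9.27 and 9.14 at 24 h, then 9.94 and 9.98 at 48 h, and 10.33 and 10.25 at 96 h. All late arrays lay above all earlier ones, with log2 changes of 1.02 ± 0.08 at 48 h (adjusted p = 0.000672) and 1.35 ± 0.08 at 96 h (adjusted p = 4.09e-06). Ddit3, the stress transcription factor CHOP, had log2 changes of 1.28 ± 0.20 at 48 h and 2.64 ± 0.20 at 96 h (adjusted p = 1.86e-05), and Sesn2, a leucine sensor upstream of mTORC1, had 0.88 and 1.54. The serine synthesis gene Psat1 had 0.00 at 48 h and -1.47 ± 0.15 at 96 h (adjusted p = 9.45e-05). Shmt2, the mitochondrial serine hydroxymethyltransferase, had -1.42 ± 0.14 at 96 h (adjusted p = 8.02e-05).

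**Figure D4:**
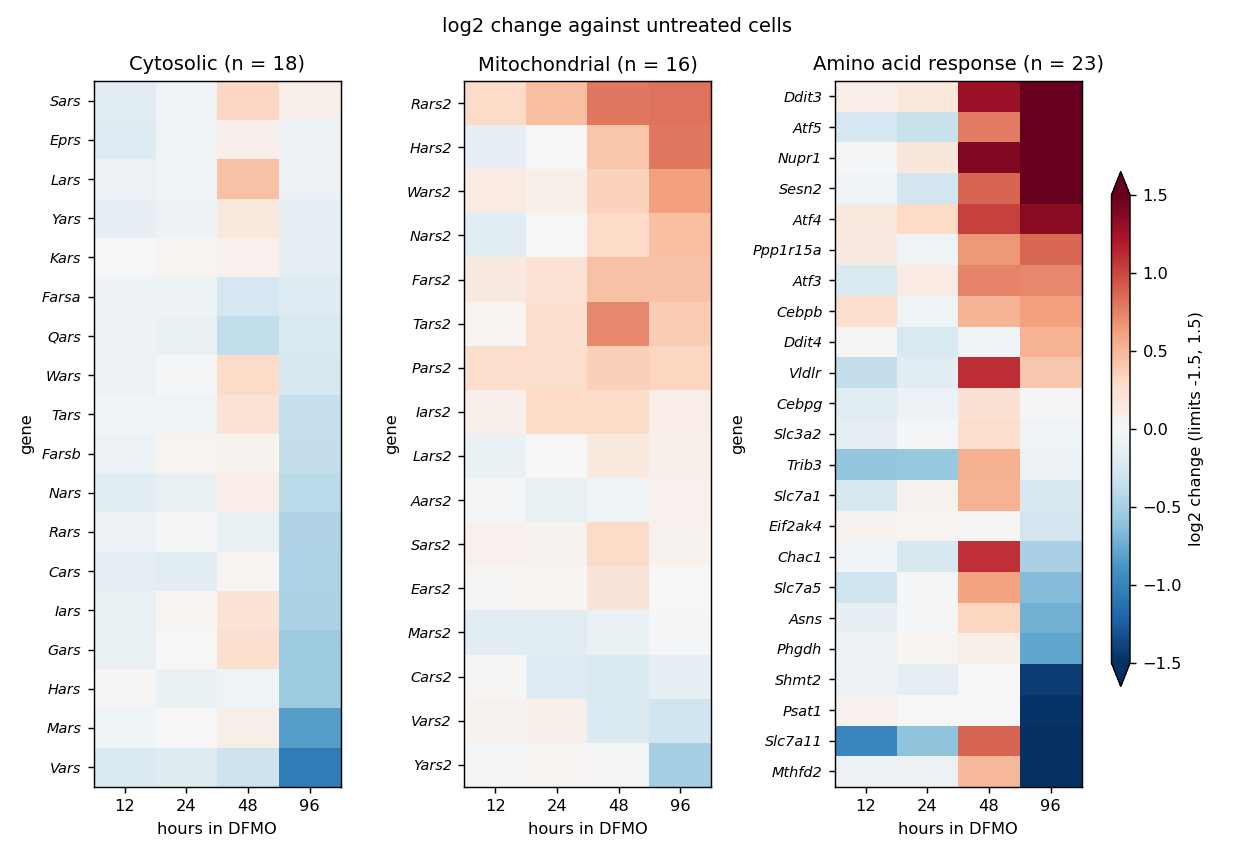
Log2 change at 12, 24, 48 and 96 h of DFMO against untreated cells for 18 cytosolic synthetases, 16 mitochondrial synthetases and 23 genes of the amino acid response, each sorted by its 96 h value. Colours end at -1.5 and 1.5 log2 units, and values beyond are drawn in the end colour. Blue prevails among cytosolic genes at 96 h, and the amino acid response divides into red and blue.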

How the data were processed

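Transcript levels were measured in 12 samples of sorted NIH3T3 cells on whole-transcript arrays. The authors deposited 1 table of log2 values per transcript cluster, and RMA, which normalises by quantiles, and Partek are named per the submitters' processing notes. Quantile normalisation hides a shift of all transcripts in 1 direction. Background stays in RMA values and can compress folds of dim genes. The filter on dim genes, set on the mean over all 12 arrays, removed 0 members. It counted the treated arrays, in which Pars2 was higher, while the untreated level of Pars2 stood at percentile 38.5 of all genes. The number of arrays limits the precision.

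Clusters were named through the platform annotation. Of 35399 clusters, 21789 had 1 symbol, 1621 several and 11989 none, and 19938 genes remained after the cluster with the highest mean was kept per gene. The linear model had 1 mean for each group and used all 12 arrays (R 4.3.3, limma 3.58.1, functions lmFit, contrasts.fit and eBayes, tested on simulated data). P-values are two-sided with Benjamini-Hochberg adjustment over all genes within a comparison, and calls use an adjusted p under 0.05. The members, the related lists and the 3 deviating arrays were chosen with earlier results of these data known. Arrays were listed in full for the 14 members with the smallest F test p. Genes outside the members were named from related lists where called at 48 or 96 h, at most 5 a list by F test p. Promoter windows were searched in RefSeq sequence of GRCm38.p6. Python 3.11.15 with matplotlib 3.10.9 made the figures.

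Labels number the replicates. Deviations of same-number arrays from their group means correlated across genes with r of 0.153, 0.287 and 0.581 between 24 h and untreated cells. Against untreated cells r was 0.189 and -0.255 at 12 h, -0.0746 and 0.157 at 48 h and -0.136 and -0.0798 at 96 h. Of these comparisons only that at 24 h had positive values throughout, and there 0 members were called with the block too. At 12, 48 and 96 h the 2 arrays deviate as mirror images, so the 2 values of r are not independent. Same-number arrays of 24 h and 48 h also correlated, with r of 0.35 and 0.419. Counts for that step with the replicate block are given in the last section. Alternatives were centred arrays, a filter on dim genes, all clusters, the mean of a gene's clusters, an intensity trend, array weights, the replicate block, 3 deviating arrays left out or as a block, a fit of only the groups compared, a stricter threshold and each array left out.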

Additional observations from a re-analysis of the deposited data

Results flagged for a closer look

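Each of these results was marked because the change since untreated cells differed between 96 h and 48 h by the direct test of 96 h against 48 h, at limma adjusted p under 0.05. Among the cytosolic synthetases the log2 difference was -0.73 for Vars, -0.54 for Wars, -0.33 for Rars, -0.68 for Iars, -0.55 for Tars, -0.91 for Mars, -0.50 for Nars and -0.77 for Gars. Wars, Iars, Tars, Mars, Nars and Gars had positive changes at 48 h and negative ones at 96 h, and of these Wars alone was called at both times. Outside the members, the difference was -1.06 for Tarsl2, 1.35 for Ddit3, -1.47 for Psat1 and -1.42 for Shmt2. No mitochondrial synthetase was marked.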

How the results depend on the processing

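The calls of Vars, Rars, Mars and Hars2 at 96 h held in all 22 alternative settings. At an adjusted p under 0.01 the counts were 4 cytosolic genes lower and 1 mitochondrial gene higher at 96 h, 0 cytosolic and 1 mitochondrial higher at 48 h, 4 cytosolic lower at 96 h against 48 h, and 1 cytosolic lower and 2 mitochondrial higher in late against early arrays. The 1 cytosolic gene called higher at 48 h became 0 with dim genes left out, with all clusters, with an intensity trend or with only the groups compared, and 2 with the replicate block. Mitochondrial genes higher at 48 h numbered 4 with array weights, the replicate block or the 3 deviating arrays as a block. Array weights or only the groups compared gave 1 cytosolic gene lower at 48 h, and dim genes left out or an intensity trend gave 1 mitochondrial gene lower at 96 h. All clusters tested together gave 5 cytosolic genes lower at 96 h against 48 h. At 48 h against 24 h, where no member was called, 1 cytosolic gene was higher with array weights, the replicate block or the 3 arrays left out, and 1 mitochondrial gene with array weights, the replicate block or the 3 arrays as a block. In late against early arrays 1 cytosolic gene was higher with the replicate block or the 3 arrays left out. The cause of these shifts was not tested.

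With each array left out in turn, cytosolic genes lower numbered 3 to 9 at 96 h, 3 to 9 at 96 h against 48 h, 1 to 3 in late against early arrays and 0 to 1 at 48 h, and cytosolic genes higher 0 to 1 at 48 h and 0 to 1 at 48 h against 24 h. Mitochondrial genes higher numbered 1 to 6 at 96 h, 0 to 3 at 48 h and 2 to 5 in late against early arrays. The change of Hars at 48 h, near 0 and not called, turned to 0.023 with array weights, 0.037 with the replicate block, 0.093 with the 3 arrays left out and 0.0073 with them as a block, and ran from -0.14 to 0.093 with each array left out. The untreated mean of Pars2, 3.80, lay below the median of all genes, 4.14. Whether background compressed its fold was not tested.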
